A study of Rattus norvegicus with 12 samples.

Results

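The genes described here encode proteins of the mitochondrial ribosome, measured in cultured rat Sertoli cells with and without MBP. They were taken by symbol: every gene whose symbol begins with Mrpl or Mrps and a number, and that has a gene array probe set annotated with that symbol alone. This gave 62 genes, 37 with large subunit symbols and 25 with small subunit symbols, out of 18304 genes with such a probe set. Where a gene had several probe sets, the one with the highest mean over the 6 arrays was used, and 66 probe sets in all carried these symbols. Another 8 symbols of the family, Mrpl17, Mrpl20, Mrpl28, Mrpl36, Mrpl41, Mrpl43, Mrps36 and Mrps7, had no probe set of their own and were not used.

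Sertoli cells, the somatic nurse cells of the seminiferous tubule, came from testes of 9-day-old rats and were kept in primary culture in medium with fetal bovine serum. After 24 h the cultures were split into a solvent control and a group given 0.1 mM MBP for a further 24 h, and total RNA was put on a whole-transcript Affymetrix gene array. The labels do not spell out MBP and name no rat strain. Each group has 3 gene arrays, numbered 1 to 3, and the labels do not say whether a number stands for an animal, an isolation or a dish, so p-values measure only the spread between these samples, which may be technical. The culture is a digest of whole testis, so RNA of other testis cells can be in every sample of both groups. The values are log2 signals.

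The mitochondrial ribosome translates the few messenger RNAs that mitochondrial DNA encodes, all of them for membrane subunits of the respiratory chain and the ATP synthase. Its ribosomal RNAs come from mitochondrial DNA, but all of its proteins are encoded in the nucleus, made in the cytosol and imported. Some of these proteins descend from bacterial ribosomal proteins and others are found only in mitochondrial ribosomes. In the testis, Sertoli cells rely largely on glycolysis and feed the lactate they make to the germ cells beside them.

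Arrays of the whole series set the limits for these genes. A probe set was called above background where it exceeded the 95th percentile of the array's intron controls, which was 5.67 to 5.88 on the arrays of numbers 1 and 2 and 6.18 and 6.2 on those of number 3. Of 27342 probe sets, 6647 to 8178 per array were above it and 6341 on all 6. Of 17 genes used as Sertoli cell markers 5 exceeded it throughout, among them the transcription factors Wt1 and Gata4, while the anti-Müllerian hormone gene Amh and the junction gene Cldn11 were below it on every array. For the myoid and fibroblast markers the count was 11 of 12. For markers of Leydig cells this held for 1 of 5 (Star), and for those of germ cells, macrophages and endothelial cells for 0 of 6, 0 of 6 and 0 of 3.

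Most mitochondrial ribosomal protein genes were detected. On all 6 arrays 36 of the 62 were above background, 21 of the large and 15 of the small subunit, or 58.1% of the genes. Another 16 were above it on some arrays: Mrpl3, Mrpl12, Mrpl15, Mrpl16, Mrpl30, Mrpl33, Mrpl47 and Mrpl48 of the large subunit, and Mrps5, Mrps10, Mrps11, Mrps12, Mrps23, Mrps33, Mrps34 and Mrps35 of the small. The last 10 were below it everywhere: Mrpl1, Mrpl2, Mrpl14, Mrpl18, Mrpl19, Mrpl40, Mrpl44 and Mrpl50, and Mrps14 and Mrps28. For these 10 genes no fold is given, and their signals are shown as read. The count above background was 46 to 51 genes on the arrays of numbers 1 and 2 and 37 and 38 on those of number 3. Signals of different probe sets are not set against each other. Of the 4 genes with a pair of probe sets, Mrpl42 had mean signals of 9.54 and 6.45, Mrpl47 5.67 and 2.82 and Mrps21 7.64 and 7.27, so the probe sets of a gene need not read alike. The probe set of Mrpl40 carries the annotation's flag for cross-hybridisation.

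No mitochondrial ribosomal protein gene passed the test for MBP. In limma, 0 of the 62 genes had an adjusted p under 0.05, against 0% of all 27342 probe sets, and the smallest adjusted p was 1. With the sample number as a block the counts were also 0, with a smallest adjusted p of 0.865. At an unadjusted limma p under 0.05 there were 0 of the 62 genes without the block, against 1.28% of all probe sets and 0.475% that were lower. With the block there were 4 lower (Mrpl19, Mrpl23, Mrpl50 and Mrps18c) and 1 higher (Mrpl47), or 8.06% of the genes, against 2.19% of all probe sets lower and 2.40% higher. Over the 36 genes above background on all 6 arrays, the log2 differences ran from -0.23 (Mrpl32) to 0.13 (Mrps2). Every 95% interval lay within a 2-fold change of signal in either direction, 49 of them within 1.5-fold, and with the block all 62 lay within 1.5-fold. These include the 10 genes below background on every array and the 16 below it on some. For such genes an interval of signal need not bound the change in RNA.

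**Figure D1:**
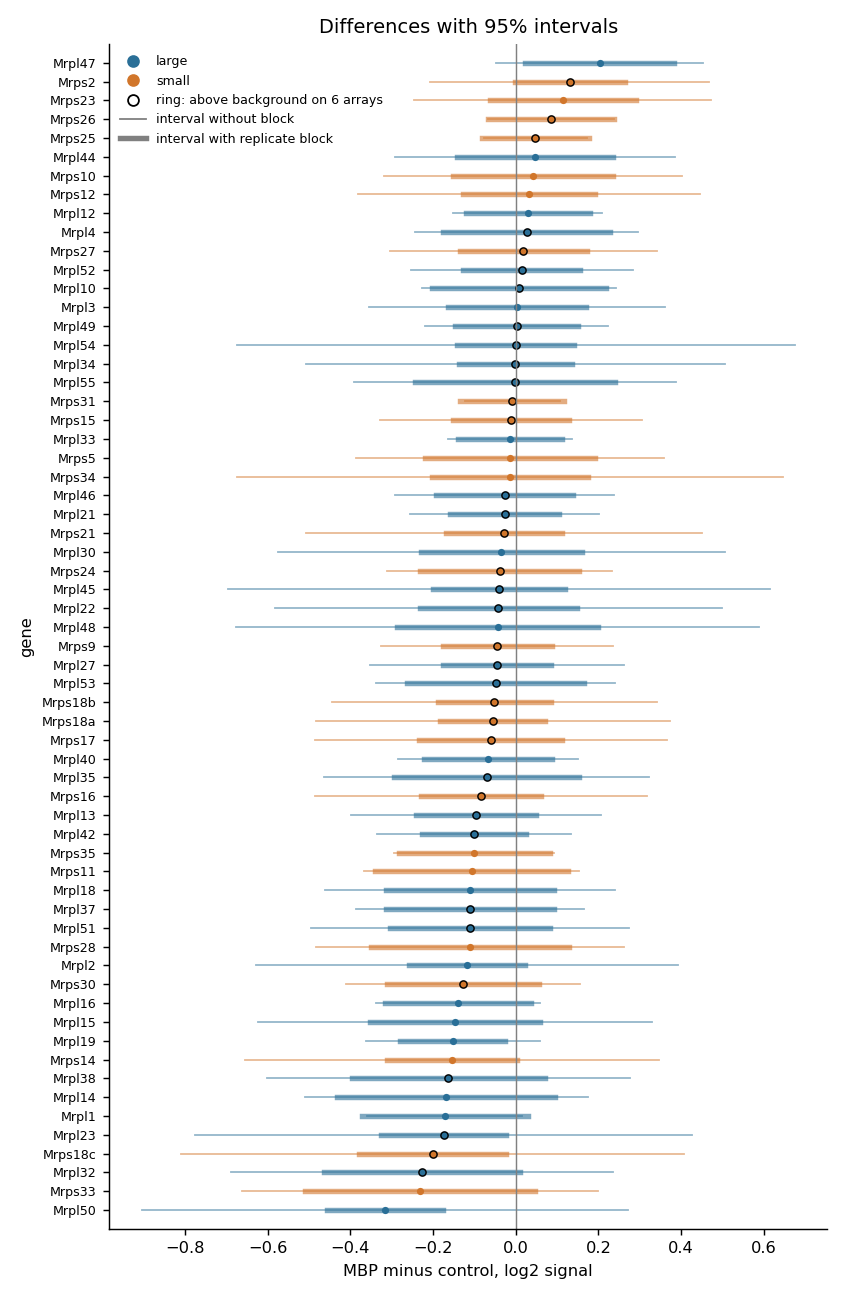
MBP minus control in log2 signal for each of the 62 genes, sorted by size, with 95% intervals from limma without the block (thin) and with the sample number as a block (thick). All intervals without the block span 0, and rings mark the 36 genes above background on all 6 arrays.

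More of the genes lay slightly below the control mean than above it. With MBP 46 of the 62 genes, or 74.2%, were lower, against 53.6% of all probe sets and 68.6% of those above background on all 6 arrays. The median log2 difference was -0.044, against -0.0065 over all probe sets and -0.030 over those above background. This direction depended on how arrays were scaled: with each array centred on its median intron control, 27 of the 62 were lower and the median was 0.0092. The median difference was -0.074 in the number 1 samples, -0.041 in number 2 and 0.0086 in number 3. All 3 pairs were lower for 14 genes, 8 large and 6 small, or 22.6%, against 12.3% of all probe sets and 21.7% of those above background. All 3 pairs were higher for 2 genes, Mrpl47 and Mrps2, against 9.08% of all probe sets. The groups did not overlap for 1 gene, Mrpl1, which was lower with MBP, against 1.52% of all probe sets, and higher with MBP for 0, against 1.91%.

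Large and small subunit genes had nearly the same median difference of group means, but were less alike within sample numbers. The 37 large subunit genes had a median of -0.045 with 28 lower, and the 25 small subunit genes a median of -0.039 with 18 lower. Large minus small of these medians was -0.0064. Taken within each of the 3 pairs instead, large minus small of the pair medians had an SD of 0.070. Pair medians of the large subunit were -0.11, -0.071 and 0.027 for numbers 1 to 3, and those of the small subunit -0.021, -0.022 and -0.021. Without control array 2 the medians became 0.025 and 0.053, without MBP array 3 0.0084 and 0.049, and without control array 3 they were -0.18 and -0.15, and in each of these fits the groups hold unequal sample numbers. With each array centred on its median intron control the medians were 0.0083 and 0.015. Structures of the ribosome place the products of Mrps30 and Mrps18a in the large subunit in spite of their symbols, and with them moved the medians were -0.049 over 39 and -0.028 over 23 genes.

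**Figure D2:**
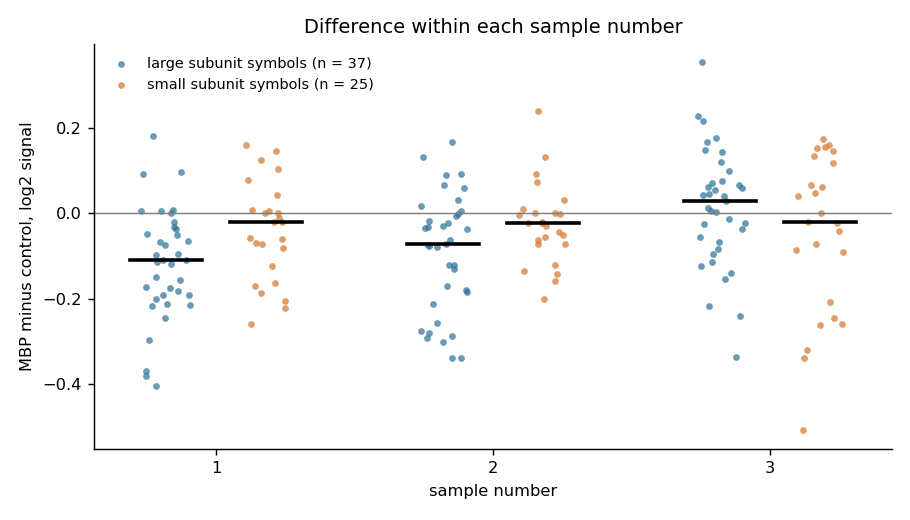
MBP minus control in log2 signal within each sample number, 1 point per gene, for 37 large and 25 small subunit genes, with the median of each set as a bar. The large subunit medians are -0.11, -0.071 and 0.027 for numbers 1 to 3, and the small subunit medians lie near -0.02 in all of them.

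The genes were also grouped by the place of their products in the ribosome, though not every gene was assigned a place. The 37 genes whose protein takes the place of a bacterial ribosomal protein had a median difference of -0.045 with 29 lower, and the other 25 one of -0.044 with 17 lower, though the 9 of these in the small subunit were at -0.0086. Mrps18a and Mrps18b, which descend from a bacterial protein but sit elsewhere than it does, are among the 25. Assigned here to the central protuberance, the part of the large subunit that faces the head of the small one, were 7 genes. All of them were lower (Mrpl18, Mrpl27, Mrpl38, Mrpl40, Mrpl46, Mrpl48 and Mrpl55), by a median of -0.045. None was lower in all 3 pairs, and Mrpl18 and Mrpl40 were below background on every array. Of the 4 genes whose proteins line the exit of the nascent chain, 3 were lower (Mrpl22, Mrpl23 and Mrpl45) and Mrpl47 was higher. The genes assigned here to the L7/L12 stalk, which recruits translation factors, were Mrpl10 and Mrpl12 only. Both were slightly higher, at differences of 0.0076 for Mrpl10 and 0.030 for Mrpl12. Among the 4 genes of the decoding centre and the path of the messenger RNA, Mrps5, Mrps11 and Mrps24 were lower and Mrps12 was higher. None of these genes passed the test, and the central protuberance genes fall short of a common sign in each pair, at medians of -0.16, -0.080 and 0.059.

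The 6 genes of smallest p among those lower with MBP did not pass. As each fell below background somewhere, folds are left out. Mrpl1, whose protein forms the mobile stalk that lets spent tRNA out, had signals of 4.54, 4.37 and 4.55 in control arrays 1 to 3 and 4.37, 4.37 and 4.22 in MBP arrays 1 to 3. Its groups did not overlap by a narrow margin, control 2 against MBP 1 and 2, and its limma p was 0.0667 (adjusted p = 1). Mrpl19, whose bacterial homologue lies at the interface between the subunits, had 4.97, 5.05 and 4.85 in control and 4.79, 4.93 and 4.70 in MBP arrays. It was lower in every pair, though the groups overlapped (unadjusted limma p of 0.126, with the block 0.0279). Mrpl16, next to the sites where tRNA binds, had 5.86, 5.91 and 5.66 in control and 5.62, 5.73 and 5.66 in MBP arrays, and its number 3 arrays were alike (unadjusted limma p of 0.137). Mrps33, a mitochondria-specific small subunit protein, had 5.96, 5.83 and 5.73 in control and 5.77, 5.83 and 5.22 in MBP arrays. Its number 2 arrays were equal and only number 3 parted by much (unadjusted limma p of 0.233). Mrpl50, a mitochondria-specific protein of the large subunit, had 3.49, 3.80 and 3.06 in control and 3.12, 3.46 and 2.82 in MBP arrays, below background throughout. Each MBP array was lower than the control array of its number while the groups overlapped, and its unadjusted limma p was 0.234 without and 0.0023 with the block (adjusted p = 0.865). Mrps35, also specific to mitochondria, had 6.26, 6.09 and 6.02 in control and 6.00, 6.09 and 5.98 in MBP arrays, with only number 1 clearly apart (unadjusted limma p of 0.249).

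The 6 of smallest p in the other direction did not pass either. Mrpl47, a protein at the nascent chain exit, had 5.75, 5.48 and 5.46 in control arrays 1 to 3 and 5.84, 5.65 and 5.81 in MBP arrays 1 to 3 and was above background on 1 array. It was higher with MBP in each pair, with an unadjusted limma p of 0.0944 without and 0.0339 with the block, but the difference was 0.20 on this probe set and 0.083 over the mean of both. Mrps26, a mitochondria-specific protein, was above background on all arrays, with 7.76, 7.76 and 7.76 in control and 7.91, 7.74 and 7.90 in MBP arrays. Its 3 control values were identical to every deposited digit, MBP 1 and 3 were higher and MBP 2 was lower (difference 0.086, 95% interval -0.066 to 0.24). Identical values recur in the family, since 6 genes had a pair difference of exactly 0. Mrps2, which lies at the head of the small subunit, had 7.30, 7.71 and 7.55 in control and 7.46, 7.79 and 7.71 in MBP arrays. It was higher in each pair, by 0.16, 0.073 and 0.16, but the groups overlapped, with a mean ± SD of 7.52 ± 0.21 for 3 control and 7.65 ± 0.17 for 3 MBP arrays (unadjusted limma p of 0.377, with the block 0.053). Its difference of 0.13 became 0.019 without control 1 and 0.23 without MBP 1. Mrps25 had 6.76, 6.83 and 6.83 in control and 6.83, 6.83 and 6.90 in MBP arrays, and 4 of its 6 arrays read 6.83. Mrps23 had 6.16, 6.19 and 5.94 in control and 6.28, 6.42 and 5.92 in MBP arrays, above background on 4 arrays, and its difference of 0.11 became 0.0064 without MBP 2 and 0.26 without MBP 3. Mrpl12 of the stalk had 5.95, 6.12 and 6.09 in control and 6.04, 6.18 and 6.02 in MBP arrays, and its sign turned when control 1 or MBP 2 was left out.

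The genes with the largest fall in group means among those above background on all 6 arrays, picked after their values were seen, were Mrpl32, Mrps18c and Mrpl23. Mrpl32, which is matured in the organelle by a protease before it joins the large subunit, had 7.19, 7.06 and 6.53 in control and 6.79, 6.78 and 6.53 in MBP arrays. The difference came from numbers 1 and 2, at -0.40 and -0.28, and number 3 gave 0.003 (unadjusted limma p of 0.273, with the block 0.0568). Mrps18c was lower in each pair, with differences of -0.22, -0.061 and -0.32, and so was Mrpl23, with -0.11, -0.28 and -0.14. For both, the groups overlapped and the unadjusted limma p was 0.448 and 0.502 without the block and 0.0331 and 0.0311 with it, with an adjusted p of 0.865.

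Signals of these genes varied with the sample number. The median range over the means of numbers 1 to 3 was 0.35 in log2, against 0.17 over all probe sets and 0.29 over those above background. The median size of the MBP difference was 0.053, against 0.055 over all probe sets. A limma F test of the sample number, fitted with group as the other term on all probe sets, called 15 of the 62 genes, or 24.2%, against 9.62% of all probe sets and 24.1% of the 6341 above background. The share of genes called was close to that of well-detected probe sets. It depended on the fit: with probe sets above background fitted alone, 27 of 36 genes and 4052 of 6341 probe sets were called, and 21 of the 62 genes were called after median centring and 22 after quantile normalization or with a variance trend. Contrasts of 2 numbers from the same fit, called at an adjusted p under 0.05, were one-sided. Number 3 was called lower than number 2 for 21 genes and higher for 0. Over all probe sets 4.82% were called lower and 5.72% higher, and over those above background 12.6% and 14.5%. Against number 1, number 3 was called lower for 12 genes and higher for 0. All probe sets had 4.18% called lower and 4.39% higher, and those above background 10.3% and 10.6%. Between numbers 2 and 1, 0 genes were called (0.333% of all probe sets).

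The 2 arrays of number 3 were the lowest arrays for most of the family. Both lay below all other 4 arrays for 42 of the 62 genes, 26 large and 16 small, or 67.7%, against 15.5% of all probe sets and 30.4% of those above background. The mean of number 3 was the lowest of the 3 for 49 genes, or 79%, against 37.1% of all probe sets and 43.1% of those above background. The median of number 3 minus number 2 was -0.29 over the genes and -0.010 over all probe sets. For large subunit genes this median was -0.28 and for small subunit genes -0.31. Number 3 below the other 4 was found for 45 genes after median centring, 44 after quantile normalization and 52 with intron control centring. That last scaling moves the median of number 3 minus the others over all probe sets to -0.18, with -0.45 over the genes. As measured in bulk RNA, fewer cells of a type and less RNA per cell cannot be told apart.

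**Figure D3:**
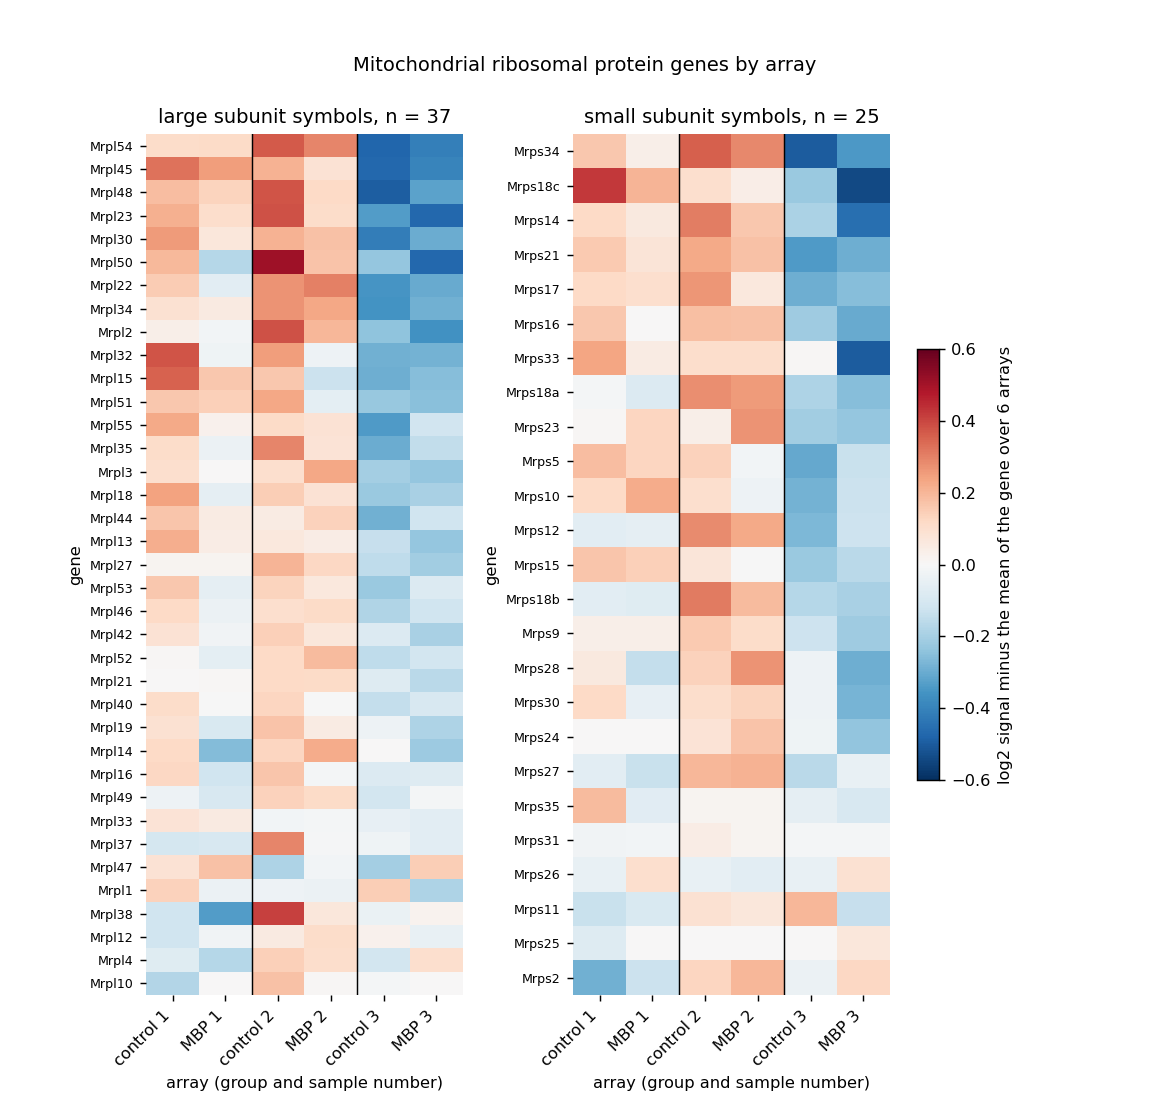
Log2 signal minus the mean of the gene over 6 arrays for the 37 large subunit genes (left) and the 25 small subunit genes (right), with the arrays ordered by sample number and group. Both number 3 columns are the lowest for 42 of the 62 genes. Control and MBP columns of a number differ in places, with MBP minus control at -0.40 for Mrpl32 in number 1 and 0.35 for Mrpl47 in number 3.

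Among large subunit genes the 6 of largest F were Mrpl54, Mrpl50, Mrpl45, Mrpl23, Mrpl34 and Mrpl2. Mrpl54 (chromosome 7, 11488465 to 11490985, Rnor_5.0), a mitochondria-specific protein, had 9.50, 9.76 and 8.92 in control arrays 1 to 3 and 9.51, 9.69 and 8.98 in MBP arrays 1 to 3. Control and MBP arrays of a number read nearly alike, and number 2 was 1.71-fold above number 3 (limma F, adjusted p = 0.0136). Mrpl45 (chromosome 10, 85047890 to 85059050), which holds the ribosome to the inner membrane at the exit of the nascent chain, had 7.32, 7.21 and 6.53 in control and 7.25, 7.09 and 6.60 in MBP arrays. Both number 3 arrays were far below the other 4 (adjusted p = 0.0181), and MBP minus control was -0.04. Mrpl23 (chromosome 1, 222596334 to 222604103), beside Mrpl45 at the exit, had 8.01, 8.18 and 7.47 in control and 7.90, 7.91 and 7.33 in MBP arrays, with number 3 again the lowest (adjusted p = 0.0194). Mrpl22, another protein of the exit, was also called (means of numbers 1 to 3 7.18, 7.42 and 6.81, adjusted p = 0.0406), whereas Mrpl47 was not (5.80, 5.57 and 5.64, adjusted p = 0.278). Mrpl34 (chromosome 16, 19735400 to 19736134), a small protein buried in ribosomal RNA, had 7.47, 7.64 and 7.01 in control and 7.43, 7.61 and 7.08 in MBP arrays, again with number 3 below all others (adjusted p = 0.0231). Mrpl50 and Mrpl2, a core protein near the peptidyl transferase centre, were below background on every array, with number means of 3.30, 3.63 and 2.94 and of 5.09, 5.37 and 4.78, so no fold is given for them. Mrpl30 was the other large subunit gene called, at 5.91, 5.95 and 5.40 (adjusted p = 0.0434).

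Among small subunit genes the 6 of largest F were Mrps34, Mrps18c, Mrps21, Mrps18a, Mrps14 and Mrps18b. Mrps34 (chromosome 10, 14073017 to 14074148), a mitochondria-specific protein, had 6.70, 6.90 and 6.04 in control and 6.58, 6.83 and 6.19 in MBP arrays. It was above background on every array except control 3, the lowest (adjusted p = 0.0258). Mrps18c, Mrps18a and Mrps18b are paralogs that descend from a single bacterial protein, whose place Mrps18c takes, and all were called. Mrps18c (chromosome 14, 10388657 to 10394875) had 7.83, 7.50 and 7.18 in control and 7.60, 7.44 and 6.86 in MBP arrays, and number 1 was the highest (adjusted p = 0.0267). Mrps18a (chromosome 9, 16133559 to 16150048) had number means of 7.62, 7.93 and 7.44 and Mrps18b (chromosome 20, 5442393 to 5448452) of 7.56, 7.88 and 7.44, both with number 2 the highest (adjusted p = 0.0279 and 0.0401). For these paralogs the contrast of number 3 with number 1 was called in Mrps18c alone (adjusted p = 0.0183, against 0.162 and 0.381), though whether the paralogs differ from each other was not tested. Mrps21 (chromosome 2, 217465593 to 217473727), the homologue of a late-assembling bacterial protein, had 7.80, 7.87 and 7.30 in control and 7.72, 7.82 and 7.35 in MBP arrays, with number 3 the lowest in both groups (adjusted p = 0.0273). Mrps14, of the small subunit head, was below background on every array, at number means of 5.22, 5.37 and 4.81. Mrps16 was also called, at 7.37, 7.46 and 7.03 (adjusted p = 0.0439).

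Some genes did not follow this pattern. Number 3 was not the lowest of the 3 number means for 13 genes. Mrps2 had its lowest mean in number 1 and stood at 7.38, 7.75 and 7.63 (adjusted p = 0.0535). The stalk genes Mrpl10 and Mrpl12 had number means of 6.78, 6.96 and 6.87 and of 5.99, 6.15 and 6.06, and Mrps31 6.20, 6.25 and 6.21. None of these 3 genes was called (adjusted p = 0.515, 0.411 and 0.812). Mrps26 and Mrps25 moved little at all, with number ranges of 0.083 and 0.072.

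Markers of other cells and of energy metabolism also moved with the sample number. The mean signal of 12 myoid and fibroblast markers was 8.83, 8.85 and 9.48 in numbers 1 to 3, and 9 of the 12 were called by the F test. Of the 12, 7 were called higher in number 3 than in number 2 and 3 lower, against 5.72% and 4.82% of all probe sets. Against number 1, 6 were called higher and 3 lower. As examples, the contractile genes Actg2, Myh11, Des and Cnn1 were higher in number 3 than in number 2, by 1.97, 2.29, 1.13 and 1.70 in log2. The matrix genes Dcn and Lum were lower, by -0.70 and -0.43. Sertoli markers were mixed: 4 of 17 were called, with Sox9, Inhba and Clu higher in number 3 than in number 1 and Kitlg, below background on every array, lower. Against number 2, number 3 was called higher for 2 Sertoli markers and lower for 1. Respiratory chain genes had the same order of numbers as the mitochondrial ribosomal ones, with means of 7.63, 7.69 and 7.35 in numbers 1 to 3, both number 3 arrays lowest in 56 of 75 genes and 29 called. For 52 cytosolic ribosomal protein genes the means were 9.97, 9.99 and 9.72, with 44 lowest in number 3 and 12 called. Called shares were 75% (myoid and fibroblast), 23.5% (Sertoli), 38.7% (respiratory chain) and 23.1% (cytosolic ribosome). All probe sets had 9.62% called and those above background 24.1%, close to the cytosolic ribosome share. Both number 3 arrays were lowest for 74.7% of respiratory chain and 84.6% of cytosolic ribosome genes. All probe sets had 15.5% and those above background 30.4%. Array background was highest in number 3 as well. The part of cell mixture or array background in these differences was not tested.

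**Figure D4:**
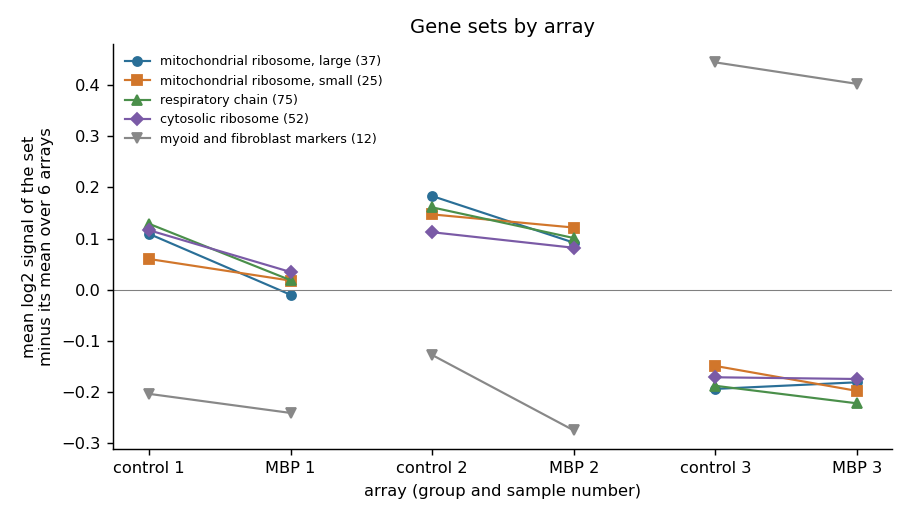
Mean log2 signal of 5 gene sets on each gene array, minus the mean of the set over the 6 arrays, with lines joining the control and MBP array of a sample number. Both mitochondrial ribosome sets, the respiratory chain and the cytosolic ribosome are lowest in number 3, where the 12 myoid and fibroblast markers are highest.

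The respiratory chain genes, whose mitochondrially encoded partners this ribosome makes, were also mostly below control with MBP. Of 75 measured, 61 of them above background on all 6 arrays, 62 or 82.7% were lower, against 53.6% of all probe sets and 68.6% of those above background, with a median of -0.069. In all 3 pairs 38 or 50.7% were lower, against 12.3% and 21.7%. Pair medians were -0.104, -0.051 and -0.025. Cytosolic ribosomal protein genes had 38 of 52 lower, with a median of -0.038. Values of both sets are given for the deposited scaling only. With each array centred on its median intron control, the median over all probe sets moved from -0.0065 to 0.047. How far the direction in these sets depends on scaling was not tested. None of the genes in either set passed the test, and whether the sets differ from the mitochondrial ribosomal protein genes was not tested.

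The rest of the machinery for mitochondrial translation was likewise without a called gene for MBP. Of 6 measured mitochondrial ribosomal proteins that carry other names, 3 were lower. Those of smallest p were Chchd1, at 7.12 in control arrays and 6.96 with MBP, and Ptcd3, at 6.61 in control arrays and 6.72 with MBP. Of 13 translation factors and membrane insertion genes 10 were lower (median -0.056), with the initiation factor Mtif2 at 4.47 in control arrays and 4.32 with MBP, below background, and the elongation factor Tufm at 6.72 in control arrays and 6.67 with MBP. Of 18 genes for tRNA synthetases and amidation 8 were lower (median 0.0093), and only 2 were above background on all 6 arrays. Fars2, at 5.57 in control arrays and 5.39 with MBP, and Lars2, at 4.89 in control arrays and 4.77 with MBP, had the smallest p there and were below it. Of 21 assembly and ribosomal RNA modification genes 13 were lower (median -0.0055), with Mettl17 at 4.81 in control arrays and 4.70 with MBP and Ybey at 3.25 in control arrays and 3.10 with MBP, both below background. Of 12 genes that transcribe and copy mitochondrial DNA 10 were lower (median -0.024), with Tfb2m at 5.73 in control arrays and 5.47 with MBP and the RNA polymerase gene Polrmt at 4.60 in control arrays and 4.52 with MBP. Tfb2m was above background on 1 array and Polrmt on 0. Of 7 regulators of mitochondrial genes 4 were lower (median -0.035), with the nuclear receptor Esrra at 5.19 in control arrays and 5.34 with MBP, below background, and the coactivator Pprc1 at 6.54 in control arrays and 6.61 with MBP. Every gene named here had an adjusted limma p of 1.

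Sample number was also tested in these companion genes. Against 9.62% of all probe sets, the F test called 2 of the 6 ribosomal proteins with other names (Chchd1 and Mrpl58). Mrpl58 is listed under a synonym in the array annotation, so the symbol rule did not take it. Also called were 2 of 13 translation factors (Oxa1l and Guf1) and 1 of 12 mitochondrial DNA genes (Tfam, below background on every array). In the other lists 0 of the 18, 21 and 7 genes were called. Both number 3 arrays were the lowest for 4 of 6, 4 of 13, 3 of 18, 9 of 21, 4 of 12 and 1 of 7 genes in the order of the lists above, against 15.5% of all probe sets. Above background on all 6 arrays were 5 of 6, 5 of 13, 2 of 18, 3 of 21, 1 of 12 and 4 of 7 of them, and the difference between lists was not tested.

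Genes of the family are spread over the genome. The annotation text gave Ensembl positions on Rnor_5.0 for 59 of the 62, on 17 chromosomes. Only Mrpl46 (chromosome 1, 141445111 to 141453185) and Mrps11 (chromosome 1, 141453419 to 141462799) stand head to head with each other, their starts 234 bases apart in the newer build GRCr8. Mrpl46 had number means of 6.57, 6.64 and 6.38 and Mrps11 of 6.09, 6.28 and 6.23, so number 3 was the lowest for Mrpl46 only. Neither was called (adjusted p = 0.184 and 0.51). Of the 50 genes with a promoter window in RefSeq, 16 had the start of a gene on the other strand within 1000 bases upstream. That is 32%, against 10.3% of all 27457 windows, which were counted whether or not their gene was detected here. Among the partners were Psma2 beside Mrpl32, a proteasome subunit, Ndufb5 beside Mrpl47, a subunit of complex I, and Tcp1 beside Mrpl18, a subunit of the cytosolic chaperonin. Of 14 partners with values, Mrpl46 and Mrps11 among them, 7 had their lowest number mean in number 3 and 7 did not. Number 3 was the lowest for 37.1% of all probe sets and 43.1% of those above background. Among the partners it was the lowest for Psma2 (8.77, 8.68 and 8.49), Ndufb5 (8.41, 8.43 and 7.995) and Tcp1 (9.94, 9.86 and 9.73). The same held for Mitd1, Ppp1r10, Ptcd2 and Mrpl46. It did not hold for Klc4, Eme1, Cyb5rl, Hira, Ncapd2, Mrps11 and Helq, the last beside Mrps18c and below background.

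Promoter windows of these genes were also read for sequence motifs. Each RefSeq window (GRCr8) holds 250 bases before and 50 after the start of the gene, and both strands were searched for 6 motifs. The motif of NRF1, a factor known to bind promoters of nuclear genes for mitochondrial proteins, was taken as GCGC, any 2 bases and GCGC, and found in 9 of 50 windows, or 18%, against 6.15% of all windows. The ETS motif CCGGAAG, also that of the factor called NRF2 or GABP, stood in 17, or 34%, against 9.22%. YY1, as AAGATGG, stood in 13, or 26%, against 7.30%, and 54% of the windows held at least 1 of these 3 motifs, against 20.1% of all. The SP1 motif GGGCGG stood in 50% against 34.9%, CCAAT in 42% against 37.7% and the E-box CACGTG in 10% against 6.65%. The windows had a median GC content of 55.8%, against 52.3% of all windows, and the part of GC content in these shares was not tested. All windows were counted whether or not their gene was detected here. Windows of detected genes were not counted apart, so the shares need not be particular to this family. Both number 3 arrays were the lowest for 13 of 17 genes with the ETS motif and 22 of 33 without it, for 7 of 9 with and 28 of 41 without the NRF1 motif, and for 9 of 13 with and 26 of 37 without YY1. Whether these counts differ with and without a motif was not tested. A motif is a match of letters and not a site of binding.

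The windows below belong to the 2 genes of largest F in each subunit that have a window, to the gene of largest F with an NRF1 motif, and to the head-to-head gene Mrpl46. They are read 5′ to 3′ on the strand of the gene, with motif letters in capitals.
Mrpl54 (chr7:9103275-9103574, plus strand): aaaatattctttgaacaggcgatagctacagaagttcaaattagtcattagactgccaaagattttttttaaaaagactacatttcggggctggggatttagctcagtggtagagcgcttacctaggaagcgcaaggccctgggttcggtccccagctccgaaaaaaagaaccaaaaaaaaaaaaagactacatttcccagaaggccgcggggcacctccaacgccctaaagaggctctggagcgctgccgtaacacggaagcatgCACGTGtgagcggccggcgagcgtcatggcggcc
Mrpl50 (chr5:68668038-68668337, minus strand): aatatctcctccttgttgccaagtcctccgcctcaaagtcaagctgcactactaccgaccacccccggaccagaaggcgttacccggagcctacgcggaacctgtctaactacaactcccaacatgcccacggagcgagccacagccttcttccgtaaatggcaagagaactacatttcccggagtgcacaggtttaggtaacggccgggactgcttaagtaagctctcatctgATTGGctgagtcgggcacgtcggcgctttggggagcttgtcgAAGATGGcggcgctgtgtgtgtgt
Mrps18c (chr14:9122857-9123156, minus strand): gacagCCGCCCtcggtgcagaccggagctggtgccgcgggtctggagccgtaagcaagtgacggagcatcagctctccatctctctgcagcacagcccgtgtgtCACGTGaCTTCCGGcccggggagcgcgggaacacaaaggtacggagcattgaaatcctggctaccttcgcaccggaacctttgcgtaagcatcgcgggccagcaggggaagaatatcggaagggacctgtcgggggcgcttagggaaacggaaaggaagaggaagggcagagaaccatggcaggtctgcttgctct
Mrps21 (chr2:186103302-186103601, minus strand): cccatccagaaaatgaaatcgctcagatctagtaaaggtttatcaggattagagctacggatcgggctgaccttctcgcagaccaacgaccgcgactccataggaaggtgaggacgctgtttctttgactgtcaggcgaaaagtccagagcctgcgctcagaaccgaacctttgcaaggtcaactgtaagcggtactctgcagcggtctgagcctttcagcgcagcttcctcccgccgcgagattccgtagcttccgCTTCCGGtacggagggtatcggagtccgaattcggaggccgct
Mrpl45 (chr10:82804789-82805088, plus strand): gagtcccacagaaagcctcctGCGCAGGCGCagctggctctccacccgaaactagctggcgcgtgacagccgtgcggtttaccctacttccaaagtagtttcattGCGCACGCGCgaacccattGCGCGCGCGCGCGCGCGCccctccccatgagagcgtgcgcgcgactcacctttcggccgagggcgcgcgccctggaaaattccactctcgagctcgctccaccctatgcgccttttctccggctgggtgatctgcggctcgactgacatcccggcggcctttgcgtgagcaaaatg
Mrpl46 (chr1:142116981-142117280, minus strand): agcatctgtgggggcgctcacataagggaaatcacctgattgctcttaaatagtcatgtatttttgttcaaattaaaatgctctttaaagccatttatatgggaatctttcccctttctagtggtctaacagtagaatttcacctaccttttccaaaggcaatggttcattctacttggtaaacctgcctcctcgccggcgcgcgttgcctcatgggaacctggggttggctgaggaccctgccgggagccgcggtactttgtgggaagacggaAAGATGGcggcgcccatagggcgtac

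In these windows the motifs differed from gene to gene. Mrpl54, of the largest F, held only an E-box, 17 bases after the start. Mrpl50 held YY1 from base 27 after the start and CCAAT on the opposite strand from position -16, and Mrpl46 held YY1 from base 25. Mrps18c held ETS and the E-box side by side, from positions -139 and -146, and an SP1 motif at the far end. Mrps21 held ETS on the opposite strand at base 8 after the start. Mrpl45 held 7 NRF1 matches, 5 of which overlap each other in a run of alternating G and C. None of the 6 motifs was held by all of the windows shown.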

How the data were processed

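The authors deposited a value table of log2 signals for the 6 gene arrays, 1 value per probe set and array. Their range shows the unit. MAS5 appears in the submitters' processing notes, without a role, while the header of the deposited annotation table names RMA for its own 6 value columns, which match no sample label and were not used. How the value table was summarised from the scans is therefore not given in the sources used here. Symbols, control classes and Rnor_5.0 positions came from the annotation text. MicroRNA arrays were not used here.

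MBP minus control was fitted on all 27342 main probe sets of 29214 with limma 3.58.1 under R 4.3.3 (linear models, moderated by eBayes, two-sided, Benjamini-Hochberg, threshold 0.05), with the sample number as a block as the alternative. The F test of sample number came from the fit with number and group. Each fit was tested on simulated data, with implanted changes larger than any difference found in these genes. How well differences as small as those found are recovered was not tested. Before the fits were compared, deviations from the group means of samples sharing a number correlated at 0.567, 0.603 and 0.779 over probe sets, and those of different numbers at -0.535 to 0.048, so the numbers pair the samples on the evidence of the data.

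Members and lists were chosen with earlier results of these data known. Described in full were, per direction, the 6 members of smallest p for MBP, and, per subunit, the 6 of largest F, with members below background by name and for each list the 2 genes of smallest p. Precision is limited by the number of arrays. Promoter windows are RefSeq's on GRCr8 and matched 50 members by symbol. The scaling, filters, probe set choice, subunit of 2 genes and left-out arrays were varied.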

Additional observations from a re-analysis of the deposited data

How the results depend on the processing

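For MBP the count of genes passing was 0 in every alternative run (scaling, filters, trend, block, left-out arrays), for the 62 genes and for all probe sets in limma. The paired fit, with the sample number as a replicate block, changed no call. In this balanced design it leaves each difference as it was by construction (medians of -0.045 and -0.039 for the large and small subunit, 46 genes lower). The direction of the medians was less stable. With 1 array left out the large subunit median ran from -0.18 to 0.025 and the small subunit median from -0.15 to 0.053. With the block and both arrays of a number left out, the small subunit median was -0.021, -0.017 and -0.047 for numbers 1 to 3. Genes lower with MBP ran from 22 (without MBP 3) and 24 (without control 2) to 55, and were 27 of the 36 genes above background. The large subunit median was -0.070 after median centring, -0.024 after quantile normalization, -0.025 after removal of the trend with signal and -0.098 with the block and without number 3. The small subunit median was -0.064 after median centring, -0.0097 after quantile normalization, -0.028 over genes with a mean signal over 6, -0.028 with Mrps30 and Mrps18a moved and -0.012 after removal of the trend with signal. Mrpl12 ran from -0.023 (without control 1) to 0.063 (without control 2) with 1 array left out, at -0.018 without MBP 2, and was -0.0043 with the block and without number 1. In the fit of probe sets above background alone, the test of sample number called 27 of 36 genes and 4052 of 6341 probe sets, against 15 of 62 and 2630 in the fit of all probe sets. The cause of these shifts was not tested.

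The following were chosen after seeing the data. With each array centred on its median intron control, the small subunit median was 0.015 and 27 genes were lower. Genes lower in all 3 pairs, 14 as reported, numbered 24 after median centring, 8 after quantile normalization, 3 with intron control centring and 8 of the 36 above background. Genes higher in all 3 pairs, 2 as reported, numbered 5 after quantile normalization, 9 with intron control centring and 1 of the 36. Both number 3 arrays were the lowest for 25 of the 36.

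With 3 arrays per group small differences could not be seen, and 26 of the 62 genes were below background on at least 1 array. The 95% intervals are not adjusted for the number of probe sets, so a gene whose interval leaves out 0 can still fail. With the block Mrpl50 had an interval of -0.46 to -0.18 and an adjusted limma p of 0.865.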
